A study of Mus musculus with 12 samples.

Results

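The Eph receptors and their ephrin ligands were examined in mouse lens epithelial cells as a set of 8 genes, the receptors Epha2, Epha4, Ephb2 and Ephb4 and the ligands Efna1, Efna5, Efnb1 and Efnb2. They were taken by gene symbol from the 24147 genes of the count files, as a family in which Epha2 and Efna5 are linked to cataract. RNA came from lens capsules and the lens epithelial cells still attached to them, after the fiber cells had been taken out of the lenses of living 2 month old mice, which models cataract surgery. FNcKO mice carry a conditional knockout of Fn1, the fibronectin gene, in a strain mix of C57BL/6, 129 and FVB/N, and WT mice were C57BL/6 with no knockout. Both genotypes were sampled 48 h after surgery and at 0 h, directly after it, with 3 libraries for each of the 4 groups. The stated aim was to learn the part of fibronectin in posterior capsular opacification, the clouding of the capsule that can follow cataract surgery. Strain background and genotype coincide in every FNcKO library and cannot be told apart. Nothing in the sources used here gives the Cre line, the deleted exons or the number of animals behind a library.

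Eph receptors are receptor tyrosine kinases of the cell surface, and ephrins are their ligands on neighbouring cells, so that signalling needs contact between cells and can run into both of them. EphA receptors mainly bind ephrin-A ligands, which are held in the membrane by a lipid anchor, and EphB receptors mainly bind ephrin-B ligands, which span the membrane. The pathway sets boundaries, adhesion and cell packing in epithelia, and in the lens variants of EPHA2 cause cataract in humans while mice without Epha2 or Efna5 have disordered lens cells.

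Libraries held 8368160 to 10862573 counts, and the 8 genes held 62 to 1895 counts in any library, so that all 8 passed the filter on low counts. Levels are given as counts per 1e6 after TMM scaling (CPM). Fn1, the targeted gene, had 146, 297 and 687 CPM in FNcKO at 48 h and 16.8, 9.8 and 8.31 CPM in FNcKO at 0 h, against 1514, 527 and 978 CPM in WT at 48 h and 18.9, 23 and 15.5 CPM in WT at 0 h. Genotypes overlapped in Fn1 at both times, and counts over a whole gene include reads outside a deleted stretch, so Fn1 does not check the labels. All 10 lens epithelium markers were detected, led by the crystallin gene Cryaa. Past the adjusted threshold given below, 1 of them rose and 6 fell over time in FNcKO, and 1 rose and 5 fell in WT. Their summed level was 12057 to 81605 CPM in FNcKO at 48 h and 96953 to 213391 CPM in FNcKO at 0 h. In WT it was 13227 to 48387 CPM at 48 h and 87434 to 145530 CPM at 0 h. Cryaa averaged 65889 CPM over the 12 libraries, so this sum was mostly the RNA of that gene and is not an amount of epithelium. Photoreceptor markers were present too, with a summed level of 284 to 3029 CPM in FNcKO at 48 h, 1146 to 4074 CPM in FNcKO at 0 h, 1122 to 3336 CPM in WT at 48 h and 2010.1 to 6357 CPM in WT at 0 h. In a combined table that the authors deposited, the column named for WT 0 h replicate 1 holds the counts of FNcKO 0 h replicate 1, so the label of these 2 libraries is in doubt, and calls that change without both are given with that value. In such bulk samples, fewer cells of a type and less RNA per cell cannot be told apart.

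In mm10, the deposited tables place Epha2 at chr4:141301221-141329384 and Ephb2 at chr4:136653610-136836011 on the same chromosome, on opposite strands. The promoters of both are shown because these were the members whose level passed the threshold over time in WT, and those of Efnb2 and Efna5 because they were the highest ligand of each class there and did not pass it. Each run holds the 250 bases before the gene's start in RefSeq (GRCm38.p6, the same coordinates as mm10), read 5′ to 3′ on the gene's own strand. The capitals mark every match on either strand to 4 motifs, which were the AP-1 motif TGANTCA, the GC box GGGCGG, the E-box CACGTG and the TEAD motif GGAATG. In these 4 windows no match overlapped another.
Epha2 (chr4:141300971-141301220, plus strand): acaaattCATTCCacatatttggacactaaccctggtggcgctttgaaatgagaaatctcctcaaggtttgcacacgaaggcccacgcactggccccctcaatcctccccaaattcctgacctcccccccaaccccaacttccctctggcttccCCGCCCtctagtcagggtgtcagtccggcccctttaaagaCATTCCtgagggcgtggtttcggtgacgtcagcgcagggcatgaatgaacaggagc
Ephb2 (chr4:136836013-136836262, minus strand): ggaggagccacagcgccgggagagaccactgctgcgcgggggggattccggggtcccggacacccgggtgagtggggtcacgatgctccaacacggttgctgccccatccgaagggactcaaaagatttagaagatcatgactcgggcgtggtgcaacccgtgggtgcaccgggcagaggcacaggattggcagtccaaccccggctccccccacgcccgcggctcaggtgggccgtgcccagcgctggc
Efna5 (chr17:62881318-62881567, minus strand): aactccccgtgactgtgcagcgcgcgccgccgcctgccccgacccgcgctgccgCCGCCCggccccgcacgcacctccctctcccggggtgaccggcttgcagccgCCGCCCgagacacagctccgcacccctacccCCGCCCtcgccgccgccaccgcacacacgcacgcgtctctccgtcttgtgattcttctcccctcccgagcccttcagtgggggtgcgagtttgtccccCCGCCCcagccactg
Efnb2 (chr8:8661243-8661492, minus strand): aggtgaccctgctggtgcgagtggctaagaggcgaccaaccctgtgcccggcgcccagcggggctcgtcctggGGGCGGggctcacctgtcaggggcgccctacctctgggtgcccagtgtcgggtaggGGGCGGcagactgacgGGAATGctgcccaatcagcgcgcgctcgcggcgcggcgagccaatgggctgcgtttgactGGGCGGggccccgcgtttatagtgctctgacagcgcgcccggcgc
The Epha2 window held 1 GC box and 2 TEAD matches, the Efnb2 window 3 GC boxes and 1 TEAD match, the Efna5 window 4 GC boxes, and the Ephb2 window none of the 4 motifs. All 8 genes matched a RefSeq window, with 9 windows in all because Efna1 has a second start. The GC box was in 7 of these 9 windows, against 32.7% of all 32851 windows, and the TEAD motif in 2 of 9, against 12.6%. Neither the AP-1 motif, which 6.75% of all windows hold, nor the E-box, which 6.02% hold, was in any of the 9. The members' windows had a median G and C content of 64.8%, with Epha2 lowest at 55.6% and Efna5 highest at 74.8%, and the median over all windows was 52.4%. A match is a description of letters and not a binding site, and a window without one says nothing of the factor.

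Epha2, the EphA receptor linked to cataract, rose over the 48 h after surgery in both genotypes. Ephb2 rose in WT, and the other 6 members passed the threshold over time in neither genotype. Between the genotypes no member passed the threshold at either time. Fold changes and p-values come from one edgeR quasi-likelihood fit to all 12 libraries, with Benjamini-Hochberg adjustment over all 14560 genes tested and a threshold of 0.05. The SE beside a log2 value is approximate, being its absolute size over the root of the F value. The members were named with results of these libraries known, so their p-values describe where they lie in the table of all genes and are not independent evidence about the family.

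**Figure D1:**
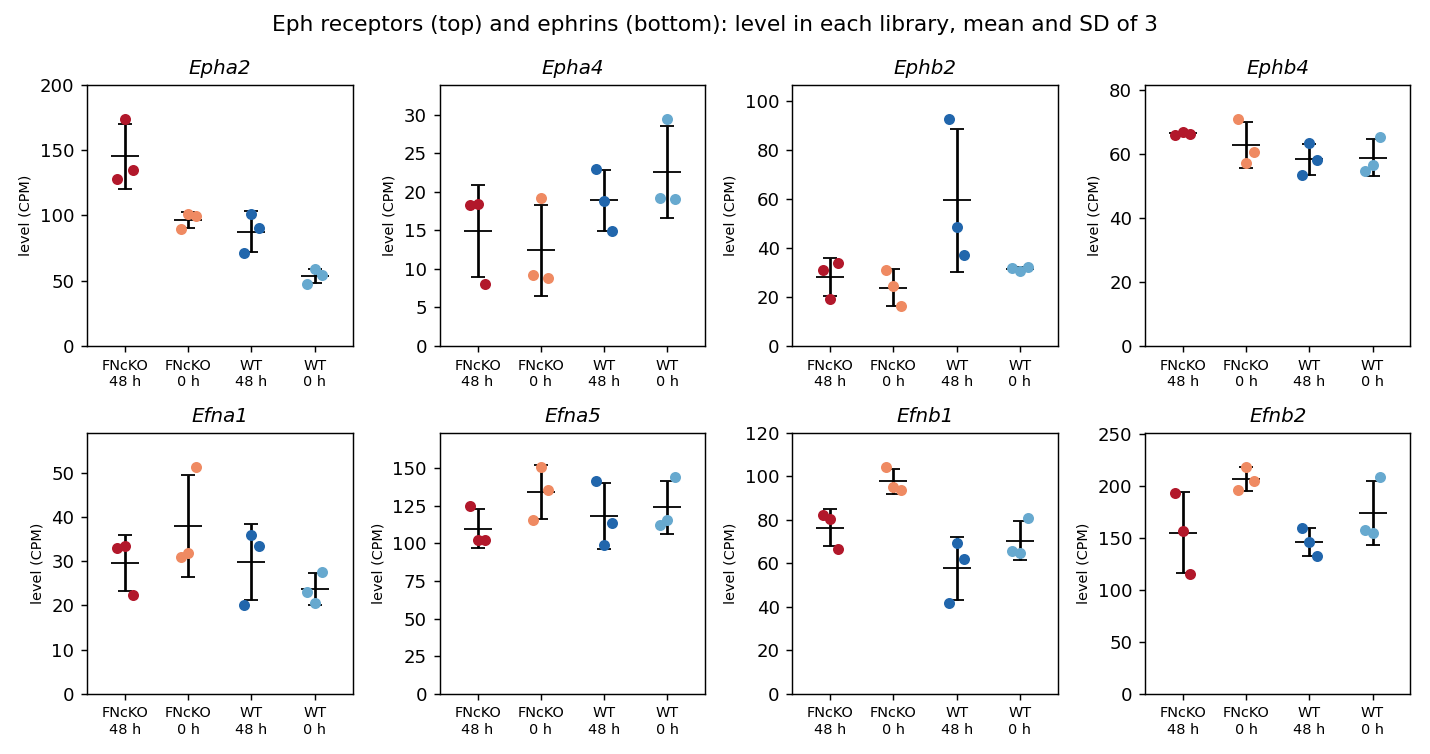
Level in CPM (y axis, from 0) of each of the 8 genes in the 4 groups (x axis), with 1 point per library and the mean and SD of 3 libraries. Epha2 is highest in FNcKO at 48 h and lowest in WT at 0 h, and 1 WT library at 48 h stands above the rest in Ephb2.

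Epha2 had 128, 174 and 134 CPM in FNcKO at 48 h and 89.7, 101 and 99.7 CPM in FNcKO at 0 h. In WT it had 70.9, 102 and 90.5 CPM at 48 h and 47.6, 58.8 and 54.5 CPM at 0 h. In each genotype all 3 libraries at 48 h lay above all 3 at 0 h, and at each time all 3 FNcKO libraries lay above all 3 WT libraries. In FNcKO the level was 1.5-fold higher at 48 h (log2 0.59, SE 0.17, edgeR adjusted p = 0.0231). In WT it was 1.63-fold higher (log2 0.71, SE 0.17, edgeR adjusted p = 0.00729). The log2 responses of the genotypes differed by −0.12, FNcKO minus WT (SE 0.24, edgeR adjusted p = 0.962), which did not pass the threshold. The rise in FNcKO missed the threshold without FNcKO 48 h replicate 2 (log2 0.44, edgeR adjusted p = 0.11), without FNcKO 0 h replicate 1 (0.54, adjusted p = 0.0834) and in 3 other alternatives of 20. Without both 0 h replicate 1 libraries the rise missed it in FNcKO (log2 0.53, edgeR adjusted p = 0.0951) and passed it in WT.

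FNcKO libraries had more Epha2 than WT libraries by 0.73 on the log2 scale at 48 h (SE 0.17, edgeR adjusted p = 0.167) and by 0.85 at 0 h (SE 0.17, edgeR adjusted p = 0.0983). Neither difference passed edgeR's threshold, while DESeq2 gave adjusted p-values of 0.0173 at 48 h and 0.00288 at 0 h. Averaged over both times, a comparison added after the data were seen, the difference was 0.79 (SE 0.12, edgeR adjusted p = 0.0106), and 0.481% of all genes passed in either direction. Epha2 was the only member to pass there, and it missed the threshold without both 0 h replicate 1 libraries (log2 0.78, edgeR adjusted p = 0.0939). The corneal epithelium has Epha2 too, and the summed level of 6 corneal markers was 697 to 1345 CPM in FNcKO at 48 h and 1781 to 2664 CPM in FNcKO at 0 h. In WT that sum was 363 to 985 CPM at 48 h and 741 to 1114 CPM at 0 h, so the genotypes did not overlap at 0 h and did at 48 h. The sum was nearly all the aldehyde dehydrogenase gene Aldh3a1, while the corneal keratin gene Krt12 was at most 6.18 CPM in any library and Kera had no counts in any 0 h library. None of the 4 corneal markers tested passed between the genotypes at either time, and the part of these cells in the Epha2 difference was not tested.

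Ephb2, an EphB receptor known from axon guidance and intestinal crypts, had 31.2, 19.2 and 34 CPM in FNcKO at 48 h and 30.9, 24.6 and 16.2 CPM in FNcKO at 0 h. WT libraries had 92.7, 48.5 and 37.3 CPM at 48 h and 31.8, 30.5 and 32.3 CPM at 0 h. WT 48 h replicate 1 stood far above all other libraries, the WT groups did not overlap, and the FNcKO groups did. Ephb2 was 1.89-fold higher at 48 h in WT (log2 0.92, SE 0.33, edgeR adjusted p = 0.0464), just inside the threshold. Without both 0 h replicate 1 libraries the difference was 0.93 (edgeR adjusted p = 0.107). The rise missed it in 10 of 20 alternatives, among them without WT 48 h replicate 1 (log2 0.45, edgeR adjusted p = 0.267), without any 1 of the 3 WT 0 h libraries (adjusted p = 0.0951 to 0.133), and, among FNcKO libraries, without replicate 2 at 0 h (0.0611) or replicate 1 at 48 h (0.0538). In FNcKO the log2 difference over time was 0.23 (SE 0.33, edgeR adjusted p = 0.654). At 48 h all 3 FNcKO libraries lay below all 3 WT libraries, by a log2 difference of −1.08 (SE 0.33, edgeR adjusted p = 0.437), or −0.61 without WT 48 h replicate 1. The difference of the responses, FNcKO minus WT, was −0.68 (SE 0.46, edgeR adjusted p = 0.945).

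Markers of neutrophils, macrophages and pigment cells stood high in WT 48 h replicate 1, the library with the most Ephb2, and other marker lists stood low there. Its sums for corneal epithelium (363 CPM) and for retinal neurons and glia (102 CPM) were the lowest of the 12 libraries. Among WT libraries at 48 h it was also lowest for vascular endothelium (56.9 CPM), photoreceptors (1122 CPM), lens epithelium (13227 CPM) and fiber cells (3332 CPM). The summed level of 7 neutrophil markers was 45.5, 41.5 and 111 CPM in FNcKO at 48 h, against 347, 73.8 and 61.3 CPM in WT at 48 h, with WT replicate 1 far above the others. At 0 h this sum was 4.02 to 4.87 CPM in FNcKO and 4.81 to 10.2 CPM in WT, and the granule gene Ngp was at 0 in every 0 h library. For 10 macrophage and monocyte markers the sum was 157, 233 and 349 CPM in FNcKO at 48 h, against 551, 349 and 211 CPM in WT at 48 h. Over time, 4 of 5 tested neutrophil markers rose in FNcKO and 5 of 5 in WT. Of the 10 macrophage and monocyte markers, 6 rose and 1 fell in FNcKO, and 5 rose in WT. The sum of 8 markers of pigment cells of the iris and ciliary body was 65.9, 44.1 and 18.8 CPM in FNcKO at 48 h, against 460.0, 415 and 179 CPM in WT at 48 h, and 3 of the 8, Tyr, Tyrp1 and Mlana, were lower in FNcKO past the threshold. The part of these cells in the Ephb2 values was not tested.

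Epha4, a receptor that binds ephrins of both classes, was the lowest member, and its groups overlapped in all 4 comparisons. It averaged 14.9 ± 5.96 CPM in FNcKO at 48 h, 12.4 ± 5.91 in FNcKO at 0 h, 18.9 ± 3.99 in WT at 48 h and 22.6 ± 5.96 in WT at 0 h (SD, n = 3 each). Its largest difference was FNcKO against WT at 0 h, where the groups overlapped (log2 −0.86, SE 0.36, edgeR adjusted p = 0.42). Ephb4, the receptor of venous endothelium, varied least of the 4 receptors, from 53.5 to 70.9 CPM over the 12 libraries. It averaged 66.4 ± 0.514 CPM in FNcKO at 48 h, 62.9 ± 7.2 in FNcKO at 0 h, 58.3 ± 4.9 in WT at 48 h and 58.9 ± 5.7 in WT at 0 h (SD, n = 3 each). FNcKO libraries lay above WT libraries at 48 h, by 0.19 on the log2 scale (SE 0.14, edgeR adjusted p = 1).

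Of the ligands, Efna5, the ephrin linked to cataract, had 125, 102 and 102 CPM in FNcKO at 48 h and 116, 151 and 136 CPM in FNcKO at 0 h. In WT it had 142, 98.8 and 113 CPM at 48 h and 112, 115 and 144 CPM at 0 h. All 4 groups overlapped, with log2 differences over time of −0.29 in FNcKO (SE 0.18, edgeR adjusted p = 0.259) and −0.07 in WT (SE 0.18, edgeR adjusted p = 0.782). Between the genotypes they were −0.10 at 48 h (SE 0.18, edgeR adjusted p = 1) and 0.11 at 0 h (SE 0.18, edgeR adjusted p = 0.807). Efna1, the other ephrin-A member and a gene induced by inflammatory cytokines, had 30.8, 31.8 and 51.3 CPM in FNcKO at 0 h, against 23, 20.6 and 27.6 CPM in WT at 0 h. The 0 h groups did not overlap, with FNcKO above WT by 0.68 on the log2 scale (SE 0.27, edgeR adjusted p = 0.403). At 48 h it averaged 29.5 ± 6.28 CPM in FNcKO and 29.8 ± 8.52 CPM in WT (SD, n = 3 each), and the groups overlapped.

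Efnb2, the arterial ephrin and the highest ligand, had 194, 156 and 115 CPM in FNcKO at 48 h and 196, 219 and 205 CPM in FNcKO at 0 h. In WT it had 159, 146 and 132 CPM at 48 h and 158, 155 and 209 CPM at 0 h. The FNcKO groups did not overlap, with 48 h below 0 h by a log2 difference of −0.41 (SE 0.19, edgeR adjusted p = 0.136), and the WT groups overlapped (−0.25, SE 0.19, edgeR adjusted p = 0.33). Without FNcKO 48 h replicate 1, the highest of its group, the FNcKO difference was −0.61 and passed (edgeR adjusted p = 0.038). Efnb1, an X-linked ephrin whose loss causes craniofrontonasal syndrome in humans, had 82.1, 80.4 and 66.6 CPM in FNcKO at 48 h and 104, 94.9 and 93.7 CPM in FNcKO at 0 h. WT libraries had 41.6, 69.2 and 62.2 CPM at 48 h and 65.8, 64.7 and 80.9 CPM at 0 h. The FNcKO groups were apart over time (−0.36, SE 0.19, edgeR adjusted p = 0.181), and so were the genotypes at 0 h, with FNcKO higher by 0.47 (SE 0.19, edgeR adjusted p = 0.405). At 48 h the genotypes overlapped (0.41, SE 0.19, edgeR adjusted p = 0.901). Vascular endothelium carries Efnb2 and Ephb4, and the sum of 10 endothelial markers was 34.3 to 76.9 CPM in FNcKO at 48 h and 10.8 to 26.1 CPM in FNcKO at 0 h, against 56.9 to 129 CPM in WT at 48 h and 20.3 to 53.2 CPM in WT at 0 h. Of these 10 markers, 7 rose over time in FNcKO and 5 in WT. Their part in the values of Efnb2 and Ephb4 was not tested.

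**Figure D2:**
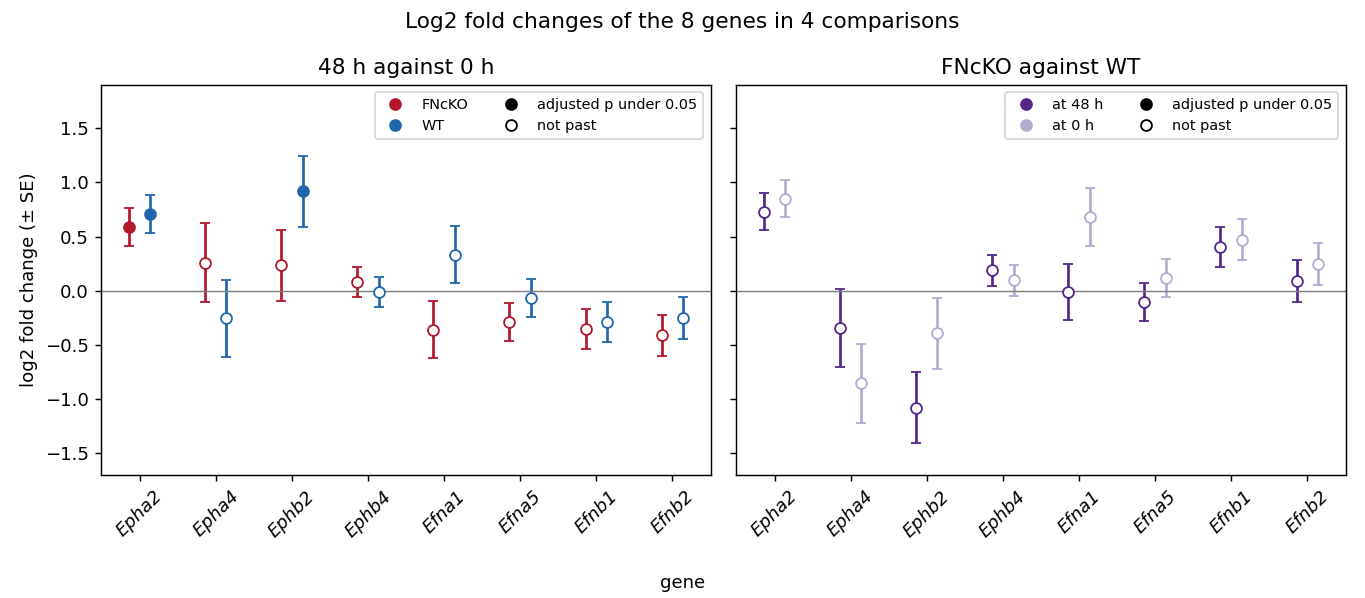
Log2 fold change with its SE (y axis) of each gene (x axis), for 48 h against 0 h in FNcKO and WT (left) and for FNcKO against WT at 48 h and at 0 h (right); filled points passed the adjusted threshold. Filled points stand at Epha2 in both genotypes and at Ephb2 in WT, and none stands on the right.

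Counted over the family, 1 of 8 members was past the threshold over time in FNcKO, higher at 48 h, where 24.8% of all genes tested passed in either direction and 14.9% were higher. In WT it was 2 of 8, both higher, where 32.6% of all genes passed and 19.1% were higher. Between the genotypes 0 of 8 passed edgeR's test at 48 h, where 0.24% of all genes did, and 0 of 8 at 0 h, where 0.144% did. Unadjusted edgeR p-values were under 0.05 for 3 members at 48 h (Epha2, Ephb2 and Efnb1) and for 4 at 0 h (Epha2, Epha4, Efna1 and Efnb1). Of all 14560 genes tested, 796 had such a p-value at 48 h and 1603 at 0 h. Among the members DESeq2 called Epha2 alone at each time, and over all genes it called 122 at 48 h and 130 at 0 h. For the difference of the responses 0 of 8 passed edgeR's or DESeq2's test, 0 had an unadjusted edgeR p under 0.05, and 0% of all genes passed in edgeR, beside 28 genes in DESeq2 and 735 with an unadjusted edgeR p under 0.05. The groups did not overlap in 3 of 8 members over time in FNcKO, against 37.5% of all genes, and in 2 of 8 in WT, against 51.5%. Between the genotypes they did not overlap in 3 of 8 at 48 h (Epha2, Ephb2 and Ephb4), against 9.74% of all genes, and in 3 of 8 at 0 h (Epha2, Efna1 and Efnb1), against 16.6%. The median log2 change of the members was −0.10 in FNcKO and −0.04 in WT over time, beside 0.00 and 0.02 for all genes tested. FNcKO against WT, it was 0.04 at 48 h and 0.18 at 0 h, beside 0.01 at each time for all genes tested. Since the choice of members may have drawn on these contrasts, nothing is read from these counts.

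Levels of different genes were compared per kilobase of the length given in the tables. On this scale, in CPM per kilobase, Epha2 stood at 37 ± 6.33 in FNcKO at 48 h, first of the 8 members, and overlapped Efnb2 at 35.9 ± 9.07. In FNcKO at 0 h Efnb2 was first at 47.8 ± 2.64 and Epha2 came after Efnb1 and Efna5 at 24.6 ± 1.57. In WT at 48 h Efnb2 was first at 33.8 ± 3.1 and Epha2 came after Efna5 at 22.3 ± 3.94, and in WT at 0 h Efnb2 was first at 40.3 ± 7.06 and Epha2 came after Efna5, Efnb1 and Efna1 at 13.6 ± 1.44 (SD, n = 3 each). Efnb2 overlapped no lower member in FNcKO at 0 h, in WT at 48 h or in WT at 0 h. Efna5, Efna1, Efnb1 and Ephb4 lay between, with many overlaps among neighbours, and Ephb2 and Epha4 were last in all 4 groups. Epha4 did not overlap the next higher member, Ephb2, in any group, and Ephb2 overlapped Ephb4 in WT at 48 h.

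Epha2 made up a larger share of the Eph receptors at 48 h. Of the summed level per kilobase of all 14 receptor genes, Epha2 held 43 ± 5.3% in FNcKO at 48 h and 31.8 ± 3.67% in FNcKO at 0 h. In WT it held 30.5 ± 5.63% at 48 h and 20.0 ± 1.33% at 0 h (SD, n = 3 each). In both genotypes the 48 h libraries lay above the 0 h libraries, and FNcKO libraries lay above WT libraries at each time. The sum over all 14 receptors was 85.8 ± 6.15 CPM per kilobase in FNcKO at 48 h, 77.6 ± 4.52 in FNcKO at 0 h, 73.4 ± 5.06 in WT at 48 h and 68.1 ± 2.95 in WT at 0 h. The 10 receptors outside the member set held 29.7 ± 3.8% in FNcKO at 48 h and 40.8 ± 2.12% in FNcKO at 0 h, against 30.7 ± 1.02% in WT at 48 h and 45.4 ± 2.43% in WT at 0 h. Among the ligands, Efnb2 held 34 ± 3.33% of the summed level per kilobase of the 8 ephrins in FNcKO at 48 h, 35.6 ± 2.05% in FNcKO at 0 h, 34.5 ± 3.65% in WT at 48 h and 37.2 ± 1.25% in WT at 0 h. Efna5 held between 17.6% and 28.2% of it over the 12 libraries.

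**Figure D3:**
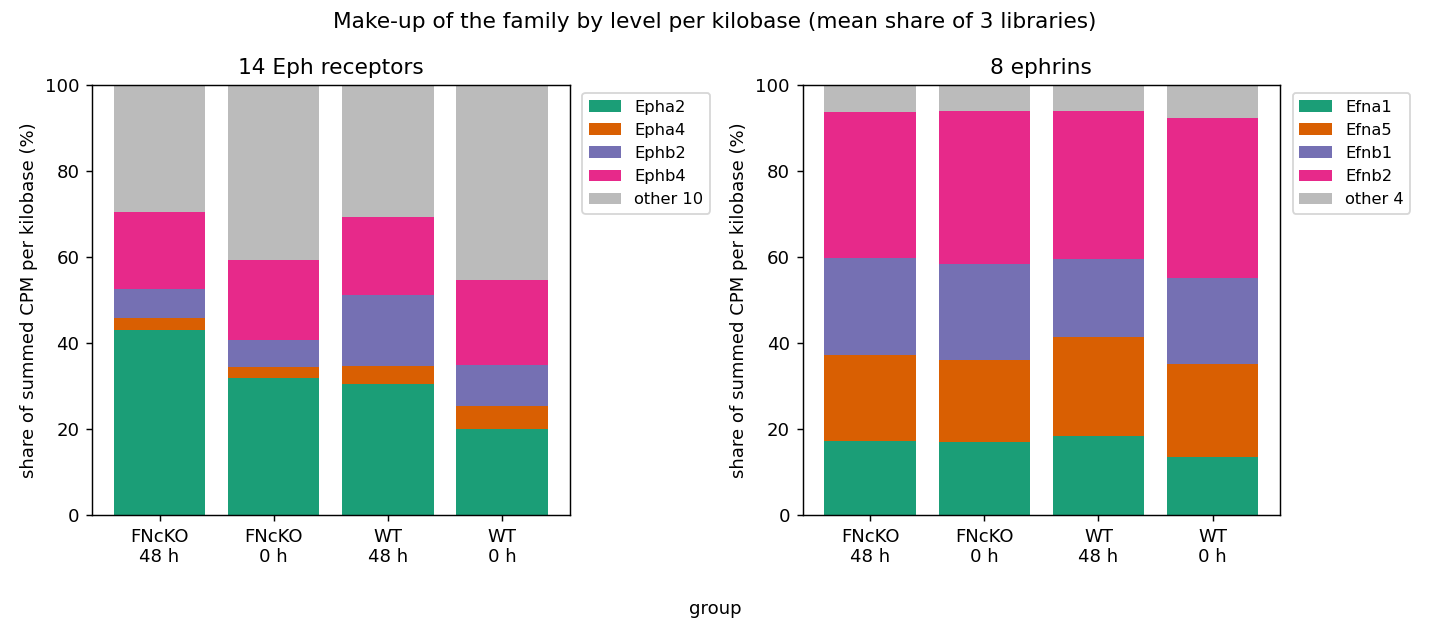
Mean share in % (y axis) of each gene in the summed CPM per kilobase of the 14 Eph receptors (left) and of the 8 ephrins (right), in the 4 groups (x axis, 3 libraries each). The Epha2 block is largest in FNcKO at 48 h and smallest in WT at 0 h, and the Efnb2 block is the largest of the ligands in all 4 groups.

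The family has 14 further genes, of which 13 passed the filter on low counts. Over time 1 of the 13 rose and 2 fell in FNcKO, where 24.8% of all genes passed in either direction. In WT 1 rose and 3 fell, where 32.6% of all genes passed. Ephb1, an EphB receptor of the developing retina and brain, had 13.5, 10.1 and 16.9 CPM in FNcKO at 48 h and 5.36, 7.27 and 3.58 CPM in FNcKO at 0 h. It rose 2.49-fold in FNcKO (log2 1.31, SE 0.30, edgeR adjusted p = 0.00671) and 2.1-fold in WT (1.07, SE 0.30, adjusted p = 0.0141), where it had 16, 15.6 and 12 CPM at 48 h and 7.32, 7.95 and 5.42 CPM at 0 h. Its WT rise missed the threshold without WT 0 h replicate 3 (log2 0.93, edgeR adjusted p = 0.0632).

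Epha1, an EphA receptor of epithelia, had 3.17, 3.93 and 1.06 CPM in FNcKO at 48 h and 24.8, 9.69 and 9.46 CPM in FNcKO at 0 h. The WT libraries had 1.81, 0.68 and 0.726 CPM at 48 h and 7.62, 11.1 and 9.03 CPM at 0 h. It fell 5.39-fold in FNcKO (log2 −2.43, SE 0.52, edgeR adjusted p = 0.00463) and 8.5-fold in WT (−3.09, SE 0.56, adjusted p = 0.00125), the reverse of Epha2. Epha6, an EphA receptor mainly of the nervous system, averaged 2.38 ± 0.791 CPM in FNcKO at 48 h and 16.3 ± 6.17 in FNcKO at 0 h, against 1.74 ± 1.21 in WT at 48 h and 8.73 ± 2.73 in WT at 0 h (SD, n = 3 each). It fell in FNcKO (log2 −2.77, SE 0.53, edgeR adjusted p = 0.00236) and in WT (−2.33, SE 0.54, adjusted p = 0.00537). Of 7 tested markers of retinal neurons and glia, 0 passed edgeR's threshold over time in FNcKO, and 3 fell in WT, among them Pou4f1 and Rlbp1. Their summed level was 109 to 165 CPM in FNcKO at 48 h and 147 to 200.1 CPM in FNcKO at 0 h, against 102 to 126 CPM in WT at 48 h and 163 to 284 CPM in WT at 0 h, and their part in the Epha6 values was not tested. Efnb3, a transmembrane ephrin known from the brain, fell in WT (log2 −1.48, SE 0.33, edgeR adjusted p = 0.00438) and did not pass in FNcKO (−0.84, SE 0.33, adjusted p = 0.0785). Without FNcKO 48 h replicate 1, Efnb3 fell in FNcKO as well (−1.08, edgeR adjusted p = 0.044), and DESeq2 called it there too (−0.86, adjusted p = 0.0412). The difference of its responses, FNcKO minus WT, was 0.64 (SE 0.46, edgeR adjusted p = 0.945).

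Ephb3, an EphB receptor of epithelia, was the highest of the further genes per kilobase, at 13.8 ± 1.76 CPM per kilobase in FNcKO at 48 h, 12.5 ± 0.948 in FNcKO at 0 h, 9.67 ± 0.76 in WT at 48 h and 12.5 ± 0.738 in WT at 0 h (SD, n = 3 each). Its FNcKO libraries lay above its WT libraries at 48 h (log2 0.51, SE 0.15, edgeR adjusted p = 0.345) and overlapped them at 0 h. Over time its WT libraries at 48 h lay below those at 0 h (log2 −0.37, SE 0.15, edgeR adjusted p = 0.0649). That WT difference passed in DESeq2 (−0.40, adjusted p = 0.0431) and without FNcKO 0 h replicate 3 (−0.39, edgeR adjusted p = 0.0488). In FNcKO the times overlapped (0.14, SE 0.15, edgeR adjusted p = 0.523). Epha5, Epha7, Epha8, Epha10, Ephb6, Efna2, Efna3 and Efna4 passed the filter and no threshold, and Epha3 did not pass the filter. Between the genotypes 0 of the 13 passed edgeR's threshold at 48 h, where 0.24% of all genes did, or at 0 h, where 0.144% did.

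**Figure D4:**
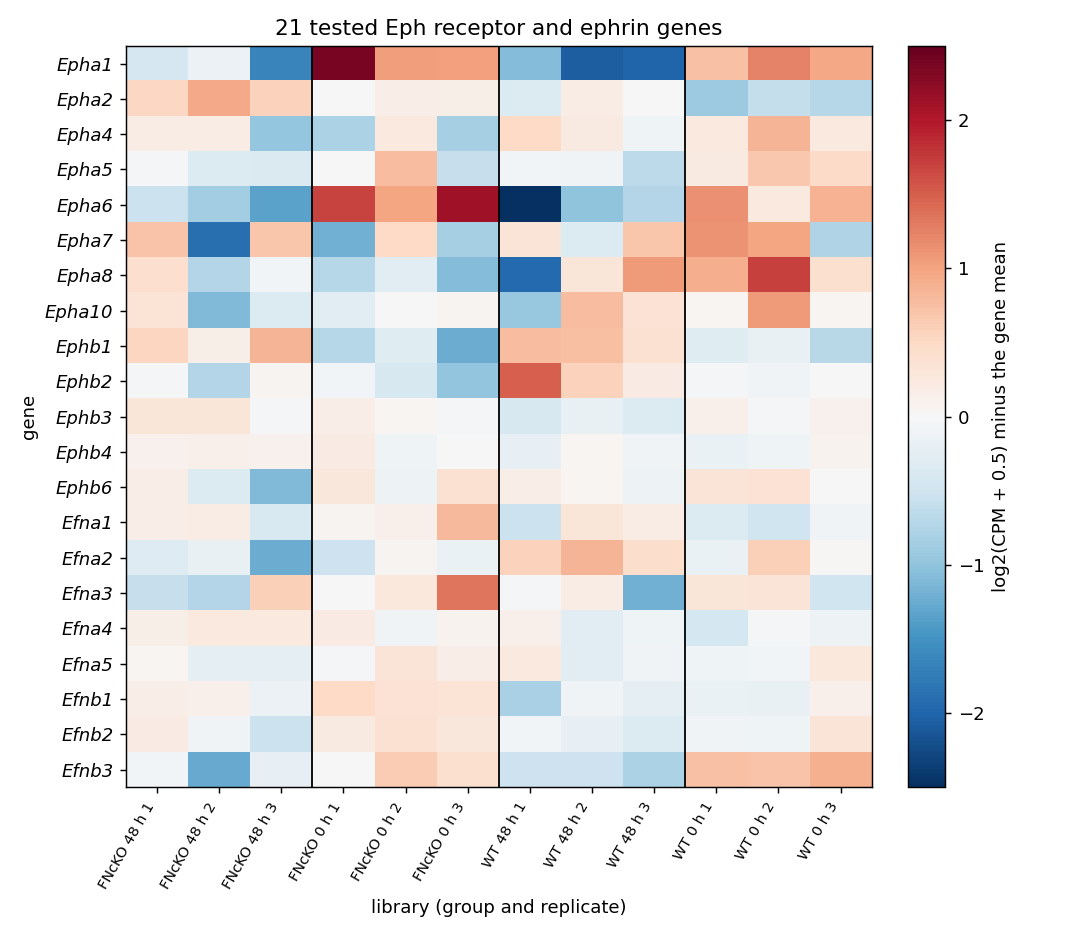
Log2(CPM + 0.5) minus the gene's mean over the 12 libraries (colour) of the 21 family genes tested (rows), in each library (columns, grouped by genotype and time). Epha1 and Epha6 are low in the 48 h libraries and high in the 0 h libraries of both genotypes, and Epha2 is highest in the FNcKO 48 h libraries.

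Of 30 genes whose products act with Eph receptors or ephrins, such as adaptors, kinases, proteases and exchange factors, 2 rose and 1 fell over time in FNcKO, and 5 rose and 3 fell in WT. Of all genes tested, 24.8% passed in either direction in FNcKO and 32.6% in WT. Mmp14, a membrane protease that cleaves EPHA2 in human tumour cells, had 68.5, 109 and 147 CPM in FNcKO at 48 h and 21.4, 24.1 and 22.9 CPM in FNcKO at 0 h. In WT it had 194, 124 and 170.3 CPM at 48 h and 24.5, 30.5 and 32.1 CPM at 0 h, and in each genotype the times did not overlap. It rose 4.74-fold in FNcKO (log2 2.24, SE 0.26, edgeR adjusted p = 8.25e-05) and 5.61-fold in WT (2.49, SE 0.26, adjusted p = 2.87e-05). Sdcbp, or syntenin-1, an adaptor that binds the tails of ephrin-B ligands, rose in FNcKO (log2 0.75, SE 0.18, edgeR adjusted p = 0.00792) and in WT (1.24, SE 0.18, adjusted p = 0.000284). Grip1, another adaptor of ephrin-B tails, fell in FNcKO (log2 −1.19, SE 0.31, edgeR adjusted p = 0.0134) and in WT (−1.60, SE 0.31, adjusted p = 0.00203). Its fall in FNcKO missed the threshold when replicate 2 at 0 h (edgeR adjusted p = 0.0508), replicate 2 at 48 h (0.0501) or replicate 3 at 48 h (0.0569) was left out. Samd5 fell in WT (log2 −1.75, SE 0.39, edgeR adjusted p = 0.00494) and did not pass in FNcKO (−1.02, SE 0.38, adjusted p = 0.0709) in edgeR. Of 20 alternatives it passed there in 2, without FNcKO 0 h replicate 3 (log2 −1.41, edgeR adjusted p = 0.0073) and in DESeq2 (−1.04, adjusted p = 0.0352).

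Eph signalling acts at cell contacts, and of 12 genes of adherens, tight and gap junctions 1 rose and 3 fell over time in FNcKO, and 2 rose and 5 fell in WT. The share of all genes past in either direction was 24.8% in FNcKO and 32.6% in WT. Cttn, a cortical actin-binding protein, rose in FNcKO (log2 0.97, SE 0.16, edgeR adjusted p = 0.00101) and in WT (1.10, SE 0.16, adjusted p = 0.000325). E-cadherin (Cdh1), the adhesion molecule of epithelia, fell in FNcKO (log2 −1.27, SE 0.29, edgeR adjusted p = 0.00602) and in WT (−1.09, SE 0.29, adjusted p = 0.011), where it missed the threshold without WT 48 h replicate 1 (−0.93, adjusted p = 0.0518). Cdh1 is also on the list of 10 lens epithelium markers, of which 6 fell in FNcKO and 5 in WT. The part of cell make-up in its fall was not tested. Gap junction genes fell as well. Gja1 fell in FNcKO (log2 −1.07, SE 0.22, edgeR adjusted p = 0.00352), while in WT it had a log2 difference of −0.36 (SE 0.22, edgeR adjusted p = 0.223). Gja3, a lens connexin, fell in FNcKO (log2 −2.09, SE 0.66, edgeR adjusted p = 0.039) and in WT (−2.13, SE 0.66, adjusted p = 0.0297), and missed the threshold in 10 of 20 alternatives in FNcKO and 6 of 20 in WT. Among these were, in FNcKO, the fits without any 1 FNcKO 0 h library, FNcKO 48 h replicate 2, WT 0 h replicate 1 or WT 48 h replicate 3 (edgeR adjusted p = 0.0531 to 0.0926). In WT they were the fits without replicate 1 at 0 h, replicate 1 at 48 h or replicate 3 at 48 h (edgeR adjusted p = 0.0604 to 0.0909). Without both 0 h replicate 1 libraries Gja3 missed it in FNcKO (log2 −2.17, edgeR adjusted p = 0.0849) and in WT (−2.10, adjusted p = 0.0721). Gja3 is also on the list of 10 fiber cell markers, whose sum was 2172 to 33464 CPM in FNcKO at 48 h and 48859.6 to 107030.0 CPM in FNcKO at 0 h, against 3332 to 18134 CPM in WT at 48 h and 37629 to 68272 CPM in WT at 0 h. Of those 10 markers, 4 fell in FNcKO and 5 in WT, and the part of fiber cells in the falls was not tested. Between the genotypes 0 of the 30 partner genes and 0 of the 12 contact genes passed edgeR's threshold at either time. Of all genes, 0.24% did at 48 h and 0.144% at 0 h.

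The genes with patterns most like a member were found by the root mean square difference of log2(CPM + 0.5), each gene centred on its own mean over the 12 libraries, among 9807 genes with a mean of at least 10 CPM. Nearest to Epha2 were Myl9, Cndp2 and Alg3, at 0.24, 0.25 and 0.25 on this log2 scale. Myl9, a myosin light chain of smooth muscle, averaged 62.9 ± 11.6 CPM in FNcKO at 48 h and 42.4 ± 4.32 in FNcKO at 0 h, against 50.8 ± 14.5 in WT at 48 h and 30.6 ± 3.48 in WT at 0 h (SD, n = 3 each). Nearest to Efna5 were Atp6ap2, Tmco1 and Sirpa, at 0.10, 0.11 and 0.12. The nearest gene was Cant1 for Ephb4 at 0.08, Thtpa for Efnb2 at 0.12, Bcar3 for Efnb1 at 0.15, Manbal for Efna1 at 0.16, Soat1 for Ephb2 at 0.29 and Gdpd1 for Epha4 at 0.31.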

How the data were processed

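RNA was sequenced from the 12 libraries of 4 groups described above, and samples were grouped by genotype and time as the labels give them. The authors deposited whole-number read counts for 24147 genes per library, with gene coordinates, gene length and an RPKM value, per the file headers. That RPKM equals count over length and library total, within a relative difference of 5.2e-15, and was used for nothing else. The length column is named coding length, though 37.7% of its values are divisible by 3, so it was taken as the counted length. The submitters' processing notes name HTSeq 0.6.1p1, TopHat2 2.1.0, edgeR 3.16.5, Trim Galore 0.4.4 and SAMtools 1.4, with mm10. No source used here gives the annotation or the strand setting of the counting. In the GENCODE annotation of mm10 no antisense gene overlaps a member. In a combined table with 9 count columns, 8 equal the library they are named for, and the column named for WT 0 h replicate 1 equals FNcKO 0 h replicate 1, so each library's own file was used.

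The count model was edgeR 4.0.16 in R 4.3.3, with filterByExpr (14560 genes left), TMM, a robust quasi-likelihood fit of 4 group means to all libraries, and Benjamini-Hochberg adjustment in each of 6 comparisons. Alternatives were DESeq2 1.42.0, other scalings, no filter, only the groups compared, a replicate block, the doubtful 0 h replicate 1 libraries, and leaving out each library. The fit was also run on counts simulated from its own estimates of spread. That run checks the procedure, and not how often a change as small as that of Epha2 would be found. The series calls its replicates biological triplicates. Replicate numbers were not taken as pairs: of 18 same-number pairs, 4 had correlated deviations above 0.1, the highest at 0.31. Pairs with different numbers reached 0.47, so this check found no pairing by number but cannot exclude it. The members and lists were chosen with earlier results of these data known. Named are all members, family genes past the threshold or highest per kilobase, up to 4 partner and contact genes with the largest changes past it in each genotype, the nearest genes, and Fn1. Some genes that the rule names are not reported here.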

Additional observations from a re-analysis of the deposited data

How the results depend on the processing

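Over 20 alternatives the members' 944 log2 values had the same direction and side of the threshold in 887 cases, lost a call in 18, gained one in 3 and changed sign in 36. A changed sign occurred in 12 of 48 member results, none above 0.23 in size as reported, and the cause was not tested. The number of members past the threshold over time in FNcKO was 0 with only the groups compared, with the combined table's column and without both 0 h replicate 1 libraries. In WT it was 1 with RLE factors, without the filter, with the replicate block, with the combined column and without both 0 h replicate 1 libraries. Between genotypes it was 1 in DESeq2 at 48 h and 1 at 0 h, and for the average over both times 0 with the combined column and 0 without both 0 h replicate 1 libraries. Leaving out 1 library gave 0 to 2 members in FNcKO and 1 to 2 in WT. No paired structure was found, and the replicate block gave Ephb2 in WT an adjusted p of 0.0507 (edgeR, BH), with 3048 genes past over time in FNcKO and 4184 in WT.

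With the combined table's column, which counts FNcKO 0 h replicate 1 as a WT library, Epha2 missed the threshold over time in FNcKO (log2 0.54, edgeR adjusted p = 0.152) and in WT (0.37, 0.204) and on average between genotypes (0.65, 0.371), and Epha1 missed it in FNcKO (−1.81, 0.0528). Over all genes, 3611 passed over time in FNcKO, 2299 without both 0 h replicate 1 libraries, and 2232 to 4095 without 1 library, the lowest without FNcKO 48 h replicate 3. In WT 3209 to 5220 passed without 1 library, against 4745. Between genotypes at 48 h 35 genes passed, 122 in DESeq2, 7 with only the groups compared, 9 with the combined column, 14 without both 0 h replicate 1 libraries and 10 to 46 without 1 library. At 0 h 21 passed, 130 in DESeq2, 10 with total counts, 0 with the combined column, 2 without both and 2 to 28 without 1 library. For the average 70 passed, 288 in DESeq2, 0 with the combined column, 17 without both and 34 to 81 without 1 library. For the difference of the responses 0 passed, 28 in DESeq2, 1 with the replicate block and 0 to 1 without 1 library.

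Scaling by total counts put the median log2 change of all genes over time at 0.29 in FNcKO and 0.23 in WT, beside 0.00 and 0.02 with TMM. Of the calls over time, 82.4% in FNcKO and 76.2% in WT were then higher, against 60.1% and 58.5% with TMM. FNcKO against WT, that median was −0.0726 at 48 h and −0.14 at 0 h, and 3.57% and 30% of calls were higher, against 17.1% and 52.4% with TMM. Signs that changed, as log2 values: over time in WT, Ephb4 was 0.20 with total counts and 0.00457 without the filter, and Efna5 0.15 with total counts. FNcKO against WT at 48 h, Efna1 was 0.0274 with the replicate block and Efnb2 −0.0102 with total counts. At 0 h, Ephb4 was −0.0579 with total counts, −0.13 with the combined column and −0.0489 without both 0 h replicate 1 libraries, and Efna5 −0.0408 with total counts. For the difference of the responses, Epha2 was 0.16 with the combined column, and Efnb1 4.58e-06 with total counts, 0.23 with the combined column and 0.0301 without both. Averaged over both times, Efna5 was −0.00266 in DESeq2, −0.00275 with RLE factors and −0.12 with total counts. Leaving out 1 library gave ranges that cross 0 for Ephb2 over time in FNcKO (−0.0199 to 0.46), Ephb4 (−0.0734 to 0.0685) and Efna5 (−0.22 to 0.0523) over time in WT, Efna1 (−0.23 to 0.15), Efna5 (−0.22 to 0.0495) and Efnb2 (−0.10 to 0.26) between genotypes at 48 h, Efnb1 (−0.26 to 0.0836) and Efnb2 (−0.35 to 0.0127) for the difference of the responses, and Efna5 (−0.0502 to 0.0827) for the average. With 3 libraries a group a gene that missed the threshold is not shown to be unchanged.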
